A study of Homo sapiens with 6 samples.

Results

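The genes described here are the 42 members of a list of autophagy machinery and cargo receptors, found by symbol among the 32692 genes of an RNA expression table. They were chosen by name for their step in autophagosome formation, and all 42 were in the table. RNA came from DU145, an established human prostate carcinoma cell line. Cells had received 5 µM of the compound OTI-611, of which only the code name is used here, or its solvent DMSO, for 24 h. Each group held 3 libraries, OTI-611 1 to 3 and DMSO 1 to 3. The labels name no genetic change in the cells and do not say whether each library had a culture of its own; p-values therefore reflect the spread among these libraries alone, which may be technical. The series title names the chromatin remodeller CHD1L as the target and FOXO3, a transcription factor with known targets among autophagy genes, as part of the axis under study.

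In 5 libraries the values were taken as RPKM, that is, reads per length of gene and per depth of library. DMSO 1 holds whole numbers only and was taken as RPKM without decimals. The steps between low values put the depth at about 37.2 to 37.7 M reads in the OTI-611 libraries and 30.6 to 32.3 M reads in DMSO 2 and DMSO 3, and gave no estimate for DMSO 1. At these depths the tested member with the fewest reads, MAP1LC3A, had about 85 reads in its lowest library. Amplified reads without molecular identifiers are not independent molecules. Of 5 epithelial markers, 3 were lower with OTI-611. The keratin KRT8 stood at 103 to 109 RPKM with OTI-611 and 146 to 153 with DMSO (log2 fold change -0.50), the cadherin CDH1 at 1.45 to 1.71 with OTI-611 and 4 to 4.80 with DMSO (-1.09), and the cadherin CDH3 at 10.9 to 11.7 with OTI-611 and 20 to 22.4 with DMSO (-0.84). KRT18, at 94.7 to 105 RPKM with OTI-611 and 99 to 99.8 with DMSO, and EPCAM, at 13.0 to 15.2 with OTI-611 and 13 to 14.6 with DMSO, did not pass. The part of these differences in the results was not tested. KLK3, which encodes the prostate-specific antigen of luminal cells, was at 0 to 0.0595 RPKM with OTI-611 and 0 to 0.0456 with DMSO. The 7 immune, endothelial and fibroblast markers in the table, of 10 looked for, summed to 0.127 to 0.137 RPKM per OTI-611 library and 0 to 0.222 per DMSO library.

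Autophagy encloses cytoplasm in a membrane and delivers it to lysosomes. The ULK kinase complex starts the process, a class III phosphatidylinositol 3-kinase marks the membrane with the lipid PI3P, and PI3P binding proteins bring in lipid transfer proteins. A pair of ubiquitin-like conjugation reactions then attach ATG8 proteins (the LC3 and GABARAP families) to the membrane, where they hold cargo receptors, before the closed autophagosome fuses with a lysosome. Transcript levels do not measure autophagic flux, the rate at which cargo is degraded.

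With OTI-611, transcripts for several early steps and for the ATG8 protein LC3B rose. None of the few lipid transfer and ATG4 protease genes passed as higher with the values as listed. After quantile normalization and after rescaling to the median log ratio, ATG4C did pass as higher. The highest rise was that of MAP1LC3B, which encodes LC3B, at 2.46-fold over DMSO 2 and DMSO 3, next to RUBCN (2.12-fold), EPG5 (2.06-fold) and ULK1 (1.61-fold). In bulk RNA, a change in the share of cells that express a gene and a change per cell cannot be told apart. In limma, with p-values adjusted over all genes tested (threshold 0.05), 40 members had a mean of at least 1 RPKM and were tested. Of these, 19 rose, 9 fell and 12 did not pass, while WDR45 and GABARAP lay under the minimum. Among all 11978 genes tested, 27.8% passed as higher and 37.3% as lower. The members' shares were 47.5% higher and 22.5% lower. The split over all genes depended on the scaling: 34.1% were higher and 34.4% lower after quantile normalization, where the members had 50% and 15%, and 33.3% and 33.2% after each library was rescaled by its median log ratio, where the members had 50% and 17.5%. Without DMSO 1 the split was 26.3% and 41.9% over all genes and 45% and 25% over the members. Their median log2 fold change, on the scale of RPKM + 1, was 0.08, against -0.05 over all genes tested. Both medians moved with the scaling, to 0.13 and -0.00 after quantile normalization and 0.14 and 0.00 after rescaling. Rises of at least 0.5 on that scale were seen in 7 members, 17.5% of those tested, against 8.28% of all genes. Both shares were counted with all 6 libraries. With 1 library left out, ATG101 and WIPI1 came under 0.5, at 0.44 and 0.45 at the lowest. For both genes DMSO 1, which lacks decimals, held the lowest DMSO value. The OTI-611 libraries lay wholly above the DMSO libraries in 19 tested members and wholly below in 11, where the shares of all genes tested were 30.5% and 39.7%. The members that rose did so by a median of 0.37, next to 0.35 for all genes called higher, and those that fell by -0.29, next to -0.42 for all genes called lower.

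**Figure D1:**
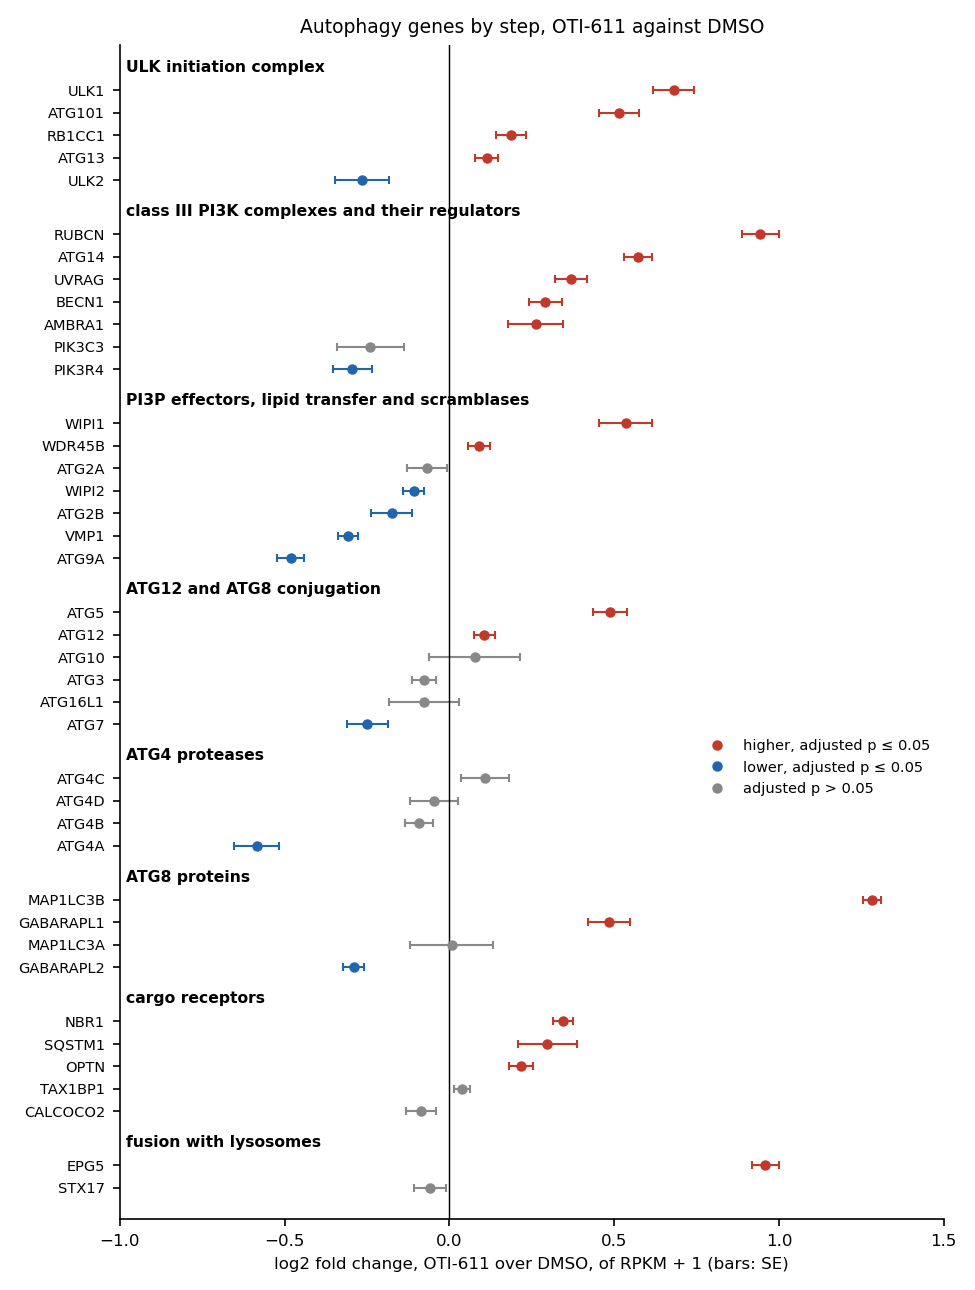
Log2 fold change (OTI-611 over DMSO, of RPKM + 1, x axis) of the 40 tested autophagy genes, grouped by step; bars are standard errors and colours give the limma call. MAP1LC3B stands furthest right at 1.28 and ATG4A furthest left at -0.58.

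**Figure D2:**
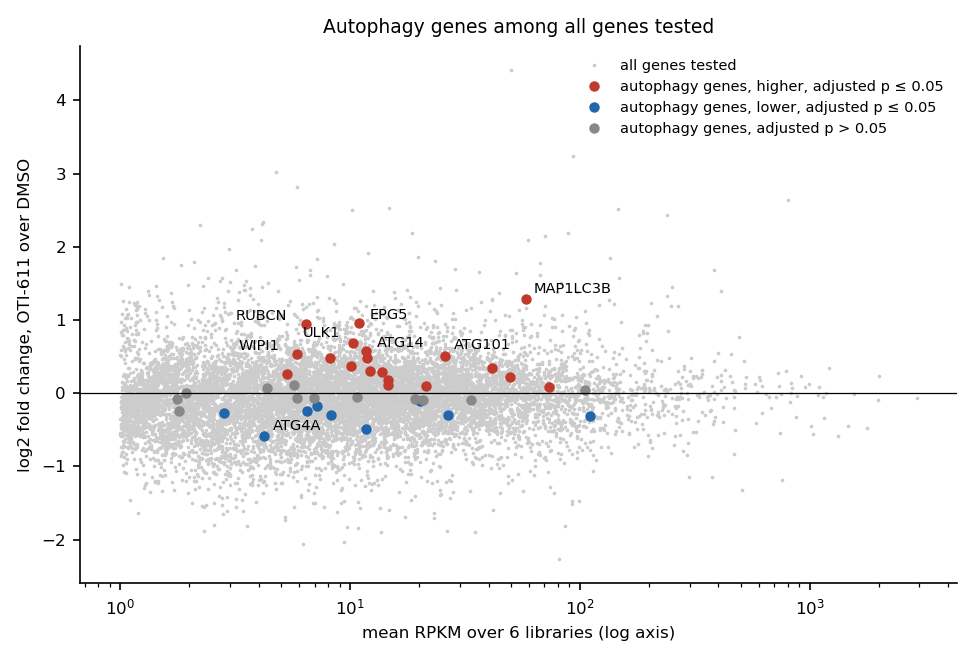
Log2 fold change (y axis) against mean RPKM over the 6 libraries (log x axis) for the 11978 genes tested (grey dots) and the 40 tested autophagy genes (larger points, coloured by call). The autophagy genes lie within the cloud of all genes, with MAP1LC3B at rank 87 from the top.

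The initiation complex rose in 4 of its 5 genes (80%), where 27.8% of all genes tested were higher. ULK1, the kinase that starts autophagosome formation, had 12.2, 13.5 and 13.1 RPKM in the OTI-611 libraries, against 7, 7.79 and 8.31 RPKM in the DMSO libraries. The groups did not overlap, and the log2 fold change was 0.68 ± 0.063 (SE, limma adjusted p = 1.28e-05). ATG101, which stabilises the adaptor ATG13, stood at 29.5, 30.7 and 31.6 RPKM with OTI-611 and at 19, 21.7 and 22.8 RPKM with DMSO. Every OTI-611 library was above every DMSO library (log2 fold change 0.51 ± 0.060, SE, limma adjusted p = 5.83e-05), although 19.2% of its exon bases lie opposite an antisense gene in GENCODE v29. Smaller rises were those of the scaffold gene RB1CC1 (0.19, from group means of 15.7 ± 0.58 RPKM with OTI-611 and 13.7 ± 0.59 with DMSO; SD, n = 3 each) and of ATG13 (0.11).

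ULK2, the paralog of ULK1, went the other way. It had 2.66, 2.30 and 2.47 RPKM with OTI-611 and 3, 3.30 and 3.23 RPKM with DMSO, so the groups did not overlap (log2 fold change -0.26 ± 0.083, SE, limma adjusted p = 0.018). The ratio of ULK1 to ULK2 was 4.58, 5.86 and 5.30 in the OTI-611 libraries and 2.33, 2.36 and 2.58 in the DMSO libraries, a pair chosen after its values were seen. The call for ULK2 was lost without DMSO 2 (limma adjusted p = 0.061), DMSO 3 (0.053), OTI-611 2 (0.079) or OTI-611 3 (0.055). It was also lost after quantile normalization (log2 fold change -0.16, limma adjusted p = 0.060) and with no filter on low values (0.068). The call for ATG13 was lost without OTI-611 2 (limma adjusted p = 0.063) or OTI-611 3 (0.053).

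**Figure D3:**
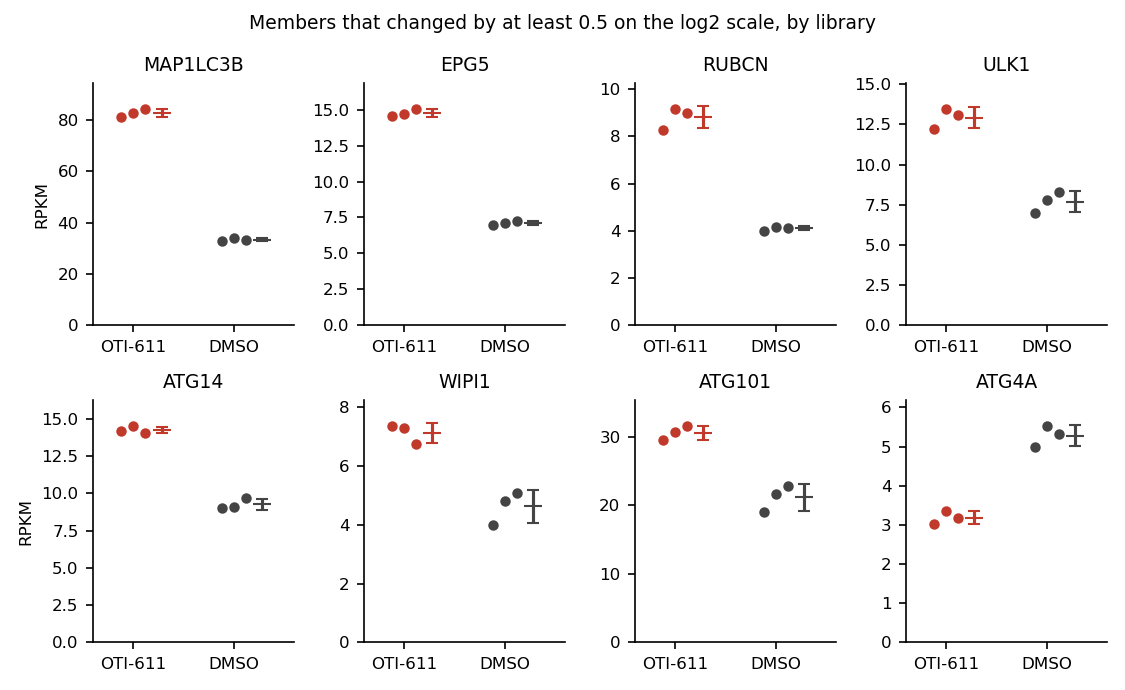
RPKM (y axis, from 0) in each library (dots) with the group mean and SD (bars) for the 8 members that passed with a log2 change of at least 0.5 in size, OTI-611 left and DMSO right. In all 8 the groups are apart, with OTI-611 higher in 7 and lower in ATG4A.

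In the lipid kinase complexes, BECN1, its partners ATG14 and UVRAG and the inhibitor gene RUBCN rose, while the kinase gene PIK3C3 and its support PIK3R4 did not. ATG14, the subunit that directs the kinase to autophagosome formation, had 14.2, 14.5 and 14.1 RPKM with OTI-611 and 9, 9.11 and 9.67 RPKM with DMSO. All OTI-611 libraries were above all DMSO libraries (log2 fold change 0.57 ± 0.042, SE, limma adjusted p = 3.03e-06). UVRAG, which takes the place of ATG14 in a second form of the complex that acts on endosomes and late steps, had 10.9, 11.9 and 11.7 RPKM with OTI-611 and 9, 8.66 and 8.40 with DMSO (log2 fold change 0.37 ± 0.048, SE). BECN1, the shared scaffold known as Beclin, averaged 15.2 ± 0.86 RPKM with OTI-611 and 12.2 ± 0.52 RPKM with DMSO (SD, n = 3 each; log2 fold change 0.29). Exons of CNTD1 and PSME3 on the opposite strand cover 17.1% of the exon bases of BECN1. AMBRA1, a positive regulator of BECN1 and ULK1, rose by 0.26. Its DMSO 1 value of 4 was the low point of its group, next to 5.07 and 5.13 in DMSO 2 and DMSO 3, and without DMSO 1 the log2 fold change was 0.17.

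RUBCN encodes Rubicon, an inhibitor that binds the UVRAG form of the complex and slows autophagosome maturation. It had 8.28, 9.16 and 9.0 RPKM in the OTI-611 libraries and 4, 4.17 and 4.13 RPKM in the DMSO libraries. The groups were far apart relative to their spread, with a log2 fold change of 0.94 ± 0.057 (SE, limma adjusted p = 8.66e-07). The inhibitor gene thus rose alongside ATG14 and UVRAG, and RUBCN reached 0.756, 0.770 and 0.771 of the UVRAG level in the OTI-611 libraries, against 0.444, 0.481 and 0.492 in the DMSO libraries, again a pair chosen after its values were seen.

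The kinase subunits themselves were lower or did not pass. PIK3R4, the pseudokinase that supports the catalytic subunit, had 6.75, 7.87 and 7.43 RPKM with OTI-611 and 9, 9.06 and 9.62 RPKM with DMSO. No OTI-611 library reached the lowest DMSO library (log2 fold change -0.29 ± 0.060, SE, limma adjusted p = 0.0019). PIK3C3, the catalytic subunit, stood at 1.71, 1.55 and 1.45 RPKM with OTI-611 and 2, 2.17 and 1.93 with DMSO (log2 fold change -0.24, limma adjusted p = 0.063). Without DMSO 1 it passed (log2 fold change -0.25, adjusted p = 0.035). Without OTI-611 1 or OTI-611 3 the call for AMBRA1 was lost (limma adjusted p = 0.055 and 0.054), and with decimals dropped in all libraries its log2 fold change was 0.09 (adjusted p = 0.41).

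Genes that read PI3P and supply lipid split in direction, with 2 of 7 tested members higher (28.6%) and 4 lower (57.1%). Of all genes tested, 27.8% were higher and 37.3% lower. After quantile normalization and after rescaling to the median log ratio, 2 members of this step were lower. WIPI1, a PI3P binding protein, rose to 7.36, 7.29 and 6.74 RPKM with OTI-611, against 4, 4.81 and 5.07 RPKM with DMSO (log2 fold change 0.53 ± 0.079, SE, limma adjusted p = 2.75e-04). Exons of other genes on the opposite strand cover 28.1% of its exon bases. Its paralog WIPI2, which recruits ATG16L1, was the more abundant of the pair and fell slightly, to 19.1, 19.7 and 19.5 RPKM, against 21, 20.9 and 21.1 RPKM with DMSO (log2 fold change -0.11). WDR45B, the most abundant member of this PI3P binding family, averaged 75.8 ± 2.6 RPKM with OTI-611 and 71.1 ± 1.8 RPKM with DMSO (SD, n = 3 each; log2 fold change 0.09, limma adjusted p = 0.036). WDR45 was listed at 0 in 5 of the 6 libraries and at 0.0101 RPKM in OTI-611 3, with 13.9% of its exon bases shared with PRAF2.

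ATG9A, a lipid scramblase carried on the vesicles that seed the membrane, fell. It had 9.54, 9.79 and 9.48 RPKM with OTI-611 and 14, 14.1 and 13.3 RPKM with DMSO, and the groups did not overlap (log2 fold change -0.48 ± 0.041, SE, limma adjusted p = 7.51e-06). A further annotated locus on the same strand shares 38.8% of the exon bases of ATG9A, so the RPKM of ATG9A is uncertain. VMP1, a scramblase of the endoplasmic reticulum, had 102, 96.7 and 96.9 RPKM with OTI-611 and 122, 119 and 125 RPKM with DMSO, where it was the most abundant member. All OTI-611 libraries lay below all DMSO libraries (log2 fold change -0.31 ± 0.030, SE, limma adjusted p = 1.74e-05). Of the lipid transfer proteins that bridge the endoplasmic reticulum and the growing membrane, ATG2B fell by 0.17 on the log2 scale and ATG2A stood at -0.07 (limma adjusted p = 0.34).

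Small changes in this step lost their calls under some settings. WIPI2 no longer passed after quantile normalization (limma adjusted p = 0.072) or rescaling to the median log ratio (0.31). WDR45B was lost without DMSO 1 (0.13), DMSO 3 (0.054), OTI-611 1 (0.077) or OTI-611 2 (0.12), and ATG2B without DMSO 2 (0.098), DMSO 3 (0.11) or any 1 of the OTI-611 libraries (0.055, 0.054 and 0.11).

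In the conjugation step, ATG5 was the member with a clear rise. ATG5, which forms the conjugating complex with ATG12 and ATG16L1, had 14.0, 14.1 and 13.9 RPKM with OTI-611 and 9, 9.88 and 10.3 RPKM with DMSO. The OTI-611 libraries lay close together and above all DMSO libraries (log2 fold change 0.49 ± 0.050, SE, limma adjusted p = 2.59e-05). ATG12, the ubiquitin-like protein joined to ATG5, averaged 22.3 ± 0.22 RPKM with OTI-611 and 20.6 ± 0.38 RPKM with DMSO (SD, n = 3 each; log2 fold change 0.11), a call lost without DMSO 2 (limma adjusted p = 0.058) or OTI-611 2 (0.053). ATG7, the enzyme that activates both ubiquitin-like systems, fell to 6.34, 5.43 and 5.69 RPKM with OTI-611, against 7, 7.02 and 7.26 RPKM with DMSO (log2 fold change -0.25 ± 0.062, SE, limma adjusted p = 0.0060). VGLL4 on the opposite strand covers part of its exons (18.1% of exon bases).

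The other 3 conjugation genes did not pass. ATG3, which transfers ATG8 proteins to lipid, stood at -0.08 (limma adjusted p = 0.097) and passed as lower without DMSO 3 (-0.10, adjusted p = 0.048). ATG10, which transfers ATG12, had 4.55, 4.42 and 4.41 RPKM with OTI-611 and 3, 4.85 and 4.92 RPKM with DMSO. Its low DMSO 1 value set the sign, at 0.08 with all libraries and -0.11 without DMSO 1, and neither passed. ATG16L1, which places the complex on the membrane, was at 1.79, 1.79 and 1.51 RPKM with OTI-611 and 2, 1.66 and 1.86 with DMSO.

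The ATG4 proteases trim new ATG8 proteins and also release them from lipid. ATG4A had 3.02, 3.35 and 3.19 RPKM with OTI-611 and 5, 5.52 and 5.31 RPKM with DMSO, so no library of either group entered the range of the other. It was the member with the largest fall, a log2 fold change of -0.58 ± 0.068 (SE, limma adjusted p = 5.57e-05), or 0.588 of the mean of DMSO 2 and DMSO 3. ATG4B, the most abundant protease of the family at 20.1 ± 0.47 RPKM with OTI-611 and 21.5 ± 1.1 RPKM with DMSO (SD, n = 3 each), stood at -0.09 (limma adjusted p = 0.085). ATG4C stood at 0.11 and ATG4D at -0.05, neither of which passed. After quantile normalization and after rescaling to the median log ratio, ATG4C passed as higher (0.19 and 0.16, limma adjusted p = 0.012 and 0.031).

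Among ATG8 genes, the balance moved towards LC3B. MAP1LC3B had 81.1, 82.7 and 84.3 RPKM in the OTI-611 libraries and 33, 33.9 and 33.3 RPKM in the DMSO libraries. Each group was tight, and the log2 fold change was 1.28 ± 0.027 (SE, limma adjusted p = 4.83e-09). The only member with a rise of at least 1 on this scale, it was among the 1.91% of all genes tested with such a rise past the threshold. GABARAPL1, a GABARAP family member, rose to 9.64, 9.95 and 9.56 RPKM, against 7, 7.08 and 5.96 RPKM with DMSO (log2 fold change 0.48 ± 0.064, SE, limma adjusted p = 1.30e-04). GABARAPL2, also of that family, fell to 24.5, 23.7 and 23.6 RPKM, against 29, 29.6 and 29.9 RPKM with DMSO (log2 fold change -0.29 ± 0.031, SE, limma adjusted p = 3.27e-05). Both groups of 3 were apart for each of these genes.

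MAP1LC3A, which encodes LC3A, was low in both groups, at 1.58, 2.22 and 2.00 RPKM with OTI-611 and 2, 1.59 and 2.17 RPKM with DMSO, and its groups overlapped (log2 fold change 0.01, 95% interval from -0.28 to 0.29). GABARAP was listed at 0.223, 0.0609 and 0.161 RPKM with OTI-611 and at 0, 0.469 and 0.280 RPKM with DMSO. In GENCODE v29, 55.7% of its exon bases are shared with other annotated genes, and the part of this overlap in its low values was not tested. MAP1LC3B2, a near-identical copy of MAP1LC3B, had 4.62, 3.50 and 4.95 RPKM with OTI-611 and 1, 1.83 and 1.81 RPKM with DMSO (log2 fold change 1.08), and reads of such copies cannot be told apart with certainty.

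The summed level of the 5 ATG8 members was 117, 119 and 120 RPKM with OTI-611 and 71, 72.6 and 71.6 RPKM with DMSO. With these listed values, MAP1LC3B made up 69.3%, 69.7% and 70.4% of that sum in the OTI-611 libraries and 46.5%, 46.7% and 46.4% in the DMSO libraries, a difference of 23.3 percentage points. The exact two-sided permutation test over 6 libraries gave p = 0.10, the smallest that 3 against 3 allows. The sum takes GABARAP at its listed values near 0, so the shares would be smaller if these are too low, and it leaves out MAP1LC3B2, with which the difference was 21.8 percentage points. GABARAPL2 made up 20.2% ± 0.64 with OTI-611 and 41.1% ± 0.59 with DMSO (SD, n = 3 each).

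**Figure D4:**
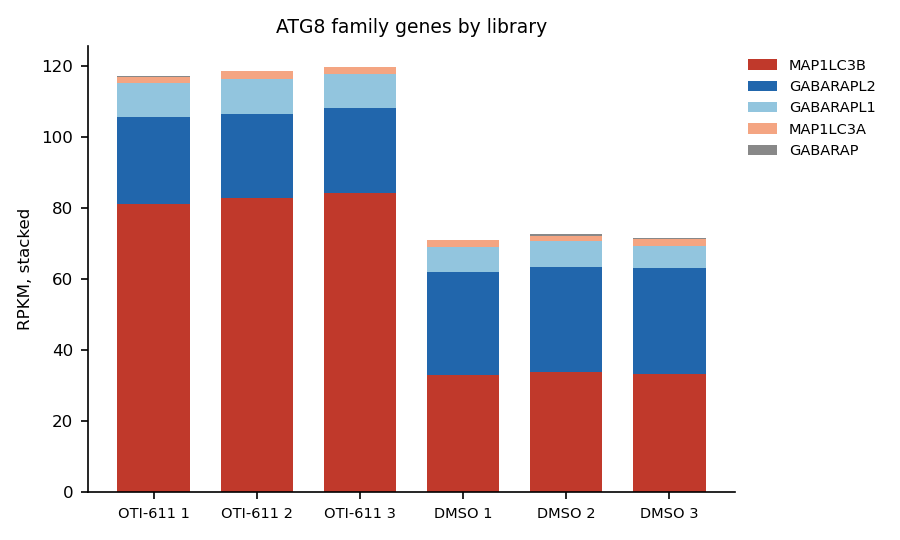
RPKM of the 5 ATG8 genes stacked by library (y axis from 0; OTI-611 libraries left, DMSO libraries right). The taller OTI-611 bars, 117 to 120 against 71 to 72.6 RPKM, differ mainly in the MAP1LC3B segment, while the GABARAPL2 segment is shorter.

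Cargo receptors link ubiquitin-marked or other cargo to ATG8 proteins. Of the 5, 3 rose (60%) and none fell, where 27.8% of all genes tested were higher and 37.3% lower. NBR1, a receptor for ubiquitinated aggregates and peroxisomes, had 48.0, 46.1 and 45.7 RPKM with OTI-611 and 37, 35.8 and 36.6 RPKM with DMSO. The groups did not overlap (log2 fold change 0.34 ± 0.030, SE, limma adjusted p = 9.18e-06). OPTN, a receptor in the removal of mitochondria and bacteria, had 51.0, 55.4 and 53.5 RPKM with OTI-611 and 45, 47.1 and 44.9 RPKM with DMSO (log2 fold change 0.22 ± 0.036, SE, limma adjusted p = 5.34e-04).

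SQSTM1, the receptor that gathers ubiquitinated proteins and is itself degraded by autophagy, had 12.4, 16.1 and 12.1 RPKM with OTI-611 and 11, 10.7 and 10.6 RPKM with DMSO. OTI-611 2 lay apart from the other libraries of its group, although all 3 were above the DMSO libraries (log2 fold change 0.30 ± 0.090, SE, limma adjusted p = 0.016). Without OTI-611 2 the log2 fold change was 0.18 (limma adjusted p = 0.013). Its call was lost with no filter on low values and with decimals dropped in all libraries (both limma adjusted p = 0.089), and exons of genes on the opposite strand cover 22.0% of its exon bases. TAX1BP1, the most abundant receptor at 107 ± 2.4 RPKM with OTI-611 and 104 ± 0.47 RPKM with DMSO (SD, n = 3 each), and CALCOCO2, at 32.6 ± 1.6 and 34.7 ± 1.7 RPKM, did not pass (log2 fold changes 0.04 and -0.09, limma adjusted p = 0.20 and 0.13).

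At fusion, EPG5 rose and STX17 did not pass. EPG5, a tether between autophagosomes and late endosomes or lysosomes, had 14.6, 14.7 and 15.1 RPKM with OTI-611 and 7, 7.09 and 7.28 RPKM with DMSO. The difference was many times the spread within either group (log2 fold change 0.96 ± 0.041, SE, limma adjusted p = 1.24e-07). STX17, the autophagosomal membrane fusion protein, stood at 7.04, 6.65 and 6.70 RPKM with OTI-611 and 7, 7.15 and 7.20 RPKM with DMSO (log2 fold change -0.06, limma adjusted p = 0.32).

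In GENCODE v29 on GRCh38, MAP1LC3B (ENSG00000140941) lies on chromosome 16 from 87383995 to 87404779, EPG5 (ENSG00000152223) on chromosome 18 from 45847609 to 45967339, RUBCN (ENSG00000145016) on chromosome 3 from 197671393 to 197749727 and ULK1 (ENSG00000177169) on chromosome 12 from 131894651 to 131923167. Overlap with exons of other genes came to 0% of the exon bases for EPG5 and ULK1, 2.31% for RUBCN and 2.82% for MAP1LC3B.

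Promoter sequences are shown for 4 members that rose, the 3 whose windows held a searched motif and ULK1, whose window held none. Windows run from 250 bases before to 50 bases after the RefSeq gene start (GRCh38.p14), 5′ to 3′ on the gene's strand, and capitals mark motif letters.
MAP1LC3B, chr16:87392086-87392385, plus strand: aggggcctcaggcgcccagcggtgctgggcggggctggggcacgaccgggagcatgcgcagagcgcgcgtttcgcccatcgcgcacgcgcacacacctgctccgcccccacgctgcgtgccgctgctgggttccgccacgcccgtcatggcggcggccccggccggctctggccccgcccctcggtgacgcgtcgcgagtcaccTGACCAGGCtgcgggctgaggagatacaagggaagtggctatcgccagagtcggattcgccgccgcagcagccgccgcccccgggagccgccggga
ATG14, chr14:55411781-55412080, minus strand: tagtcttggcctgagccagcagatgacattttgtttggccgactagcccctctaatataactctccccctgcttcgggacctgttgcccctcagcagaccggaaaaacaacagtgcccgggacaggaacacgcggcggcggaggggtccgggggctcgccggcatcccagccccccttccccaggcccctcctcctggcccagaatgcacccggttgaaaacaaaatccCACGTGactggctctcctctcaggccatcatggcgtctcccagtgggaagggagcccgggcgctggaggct
ATG101, chr12:52069728-52070027, plus strand: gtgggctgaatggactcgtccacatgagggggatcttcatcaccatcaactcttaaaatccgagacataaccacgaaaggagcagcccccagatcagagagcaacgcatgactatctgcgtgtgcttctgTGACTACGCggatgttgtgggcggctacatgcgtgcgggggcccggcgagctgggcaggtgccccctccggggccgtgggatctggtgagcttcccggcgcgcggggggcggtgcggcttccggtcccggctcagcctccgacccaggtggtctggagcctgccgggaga
ULK1, chr12:131894372-131894671, plus strand: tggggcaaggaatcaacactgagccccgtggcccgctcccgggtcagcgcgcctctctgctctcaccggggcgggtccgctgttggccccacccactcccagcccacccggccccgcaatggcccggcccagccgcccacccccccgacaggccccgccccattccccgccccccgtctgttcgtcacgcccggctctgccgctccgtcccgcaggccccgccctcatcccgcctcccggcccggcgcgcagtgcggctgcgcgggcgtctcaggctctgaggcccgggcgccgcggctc

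Windows were found for 35 of the 42 members, 1 per gene. Some lie apart from the outermost gene start in GENCODE v29, such as those of MAP1LC3B, ATG5, ATG16L1 and AMBRA1. Other starts of these genes were not searched. The E-box CACGTG, the core of the element bound by TFEB, was present in 2 of them (5.71%, against 7.43% of 27305 promoters of the same length), those of ATG14 at -21 and of ATG3 at -18 and 6, counted to the first base of the match. The NRF2 element core TGACNNNGC was in 3 (8.57%, against 13.6%): MAP1LC3B at -46, ATG101 at -120 and CALCOCO2. The FOXO element GTAAACA was in 1, that of CALCOCO2 (2.86%, against 3.41%), and the ATF4-CEBP element TGATGNAA in 0 (against 3.67%). Both strands were searched, and the matches of different motifs did not overlap in the windows shown. A match is a description of the letters and no evidence of binding. GC made up a median of 64.7% of the member windows and 58.3% of all windows.

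Further genes of the pathway, in 6 lists of 62 genes, went both ways: 21 of the 53 tested rose (39.6%), 15 fell (28.3%) and 17 did not pass, against 27.8% higher and 37.3% lower of all genes tested. Their median log2 fold change was 0.03. Among receptors for autophagy of the endoplasmic reticulum, 3 of 9 rose and 2 fell. RETREG2, a membrane-shaping receptor, rose by 0.31, CALCOCO1 was at 4.28 ± 0.11 RPKM with OTI-611 and 8.15 ± 1.0 RPKM with DMSO (SD, n = 3 each; log2 fold change -0.79), and RTN3 fell by 0.14 on the log2 scale. Among 10 tested mitophagy genes, 2 rose, the outer membrane receptors BNIP3L (0.43) and BNIP3 (0.26), and 3 fell, including NIPSNAP1 (-0.44).

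Fusion machinery was lower in 6 of 10 tested genes (60%) and higher in 1 (10%), where 37.3% of all genes tested were lower and 27.8% higher. The SNARE genes VAMP8 and SNAP29, whose products pair with STX17, fell. VAMP8 had 19.9 ± 0.97 RPKM with OTI-611 and 32.9 ± 0.93 RPKM with DMSO (SD, n = 3 each; log2 fold change -0.69, limma adjusted p = 7.67e-07). SNAP29 had 14.9 ± 0.71 RPKM with OTI-611 and 21.4 ± 0.70 RPKM with DMSO (SD, n = 3 each; log2 fold change -0.49). VPS41, of the tethering complex HOPS, fell by 0.31 on the log2 scale.

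Other core genes rose in 6 of 9 tested (66.7%) and fell in 1 (11.1%), against 27.8% higher and 37.3% lower of all genes tested. NRBF2, a further subunit of the ATG14 complex, had 33.4 ± 0.26 RPKM with OTI-611 and 19.1 ± 1.2 RPKM with DMSO (SD, n = 3 each; log2 fold change 0.78). TMEM41B, a scramblase that works with VMP1, had a log2 fold change of 0.74, and ZFYVE1, a PI3P binding protein that marks sites of autophagosome formation, also 0.74. Of 9 tested upstream kinase genes, 5 rose (55.6%) and 2 fell (22.2%). TSC1, an inhibitor of the kinase complex mTORC1, rose by 0.64 and the mTORC1 subunit gene MLST8 by 0.36. RPTOR, which encodes the mTORC1 scaffold Raptor, stood at -0.66.

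Of 6 tested transcription factor genes, 4 rose (66.7%) and ATF4 fell (-0.17), where 27.8% of all genes tested were higher and 37.3% lower. DDIT3, FOXO3 and XBP1 had log2 fold changes of 3.24, 1.01 and 1.03. TFEB, a regulator of lysosome and autophagy genes, was listed at 1.06, 0.839 and 0.999 RPKM with OTI-611 and at 0, 1.46 and 1.36 RPKM with DMSO. It was not tested, since its mean of 0.953 RPKM, with DMSO 1 listed at 0, lay under the minimum of 1. The OTI-611 mean of TFEB was 0.683 of the mean of DMSO 2 and DMSO 3. TFE3 was listed at 0 in all libraries but OTI-611 3 (0.0161 RPKM).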

How the data were processed

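RNA from DU145 cells was measured in 3 OTI-611 and 3 DMSO libraries, grouped by their labels. Per the labels' protocols, complementary DNA of the messenger RNA was amplified as in Geo-seq and a TruePrep kit was used for the libraries. Per the submitters' processing notes, TopHat2 2.0.9, Cufflinks 2.1.1, HTSeq, FastQC and CASAVA 1.7 are named, in roles not given, beside the mouse build mm10, whereas the gene IDs are human, so the annotation behind the values is not established. The authors deposited 5 columns taken as RPKM from their values (FPKM cannot be told apart), and 1 column, DMSO 1, of whole numbers only, recorded as a score because its unit could not be checked and used in every test as RPKM without decimals. Depth was estimated from steps of low values with GENCODE v29 exon lengths, with which 69.3% to 70.3% of low values were whole reads within 0.05. Of genes at 1 or more in both libraries of a pair, at most 0.0175% had identical values within a group, so no library looked deposited more than once.

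Values were tested as log2(value + 1), which understates changes of low genes, in genes averaging at least 1, with limma 3.58.1 in R 4.3.3 (group as the only term, two-sided, variance trended on the mean, p-values adjusted by Benjamini-Hochberg across 11978 genes, threshold 0.05). The fit was tested on simulated data. The files held no counts, so no count test was run. The named genes are the 42 members and, of the other lists, up to 3 tested genes each with the smallest p plus FOXO3, TFEB, TFE3, ATF4 and DDIT3. MAP1LC3B2 and the cell type markers were named outside that rule. Members and lists were chosen with earlier results of these data known. The planned comparison of ATG8 protein sequences was not made, since no protein table was used here. Alternatives were other scalings, pseudocounts and filters, dropped decimals, a replicate block and leaving out each library. Promoter sequences are from RefSeq.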

Additional observations from a re-analysis of the deposited data

How the results depend on the processing

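Under 14 other settings, 24 of the 40 tested members kept their direction and their side of the threshold wherever they were tested, 8 lost their call under at least 1 setting, 3 gained one and 5 changed sign without passing. Counts of members higher ranged from 16 to 20 and of members lower from 6 to 10, against 19 and 9. There were 20 higher and 6 lower after quantile normalization, and 20 and 7 after rescaling by median log ratios. All genes tested then came to 4085 and 4115, and to 3986 and 3978, in place of 3332 and 4473. Leaving out 1 library gave 16 to 18 higher and 7 to 10 lower. The difference in the MAP1LC3B share ranged from 23.0 to 23.6 percentage points. It was 23.2 with GABARAP left out of the sum and 21.8 with MAP1LC3B2 added to it, both chosen after seeing the data. GABARAP held at most 0.646% of the sum in any library, so leaving it out could hardly move the difference. What a higher GABARAP level would do to the share was not tested. MAP1LC3B itself ranged from 1.19 to 1.34 on the log2 scale.

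Sign changes, none of them past the threshold, were ATG2A after quantile normalization (0.0048), ATG16L1 after quantile normalization (0.084), ATG4D after rescaling (0.0092), and, with 1 library left out, ATG10 without DMSO 1 (range over the libraries -0.11 to 0.17), ATG4D without DMSO 2 or OTI-611 1 (-0.10 to 0.021) and MAP1LC3A without DMSO 2, OTI-611 2 or OTI-611 3 (-0.078 to 0.096). By step, ULK2, the 1 lower initiation gene, gave 0 in 7 settings, in 1 of which it was not tested. Lipid transfer and PI3P genes gave 1 higher in place of 2 in 6 settings and 2 lower in place of 4 under both scalings. The lipid kinase step gave 2 lower in place of 1 without DMSO 1. Conjugation gave 1 higher in place of 2 without DMSO 2 or OTI-611 2, and 2 lower in place of 1 without DMSO 3. The proteases gave 1 higher in place of 0 under both scalings and 0 lower in place of 1 with a minimum mean of 5, under which ATG4A was not tested. The causes of the other changes were not tested. Of the other genes named, RTN3 lost its call after rescaling (limma adjusted p = 0.11).

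Same-numbered libraries of the groups did not deviate together (correlations from -0.058 to 0.019), so the numbers are not shown to pair them. A fit with the replicate number as a block gave 19 members higher and 9 lower, and 3327 and 4429 of all genes. The whole numbers of DMSO 1 limit what can be said of members at a few RPKM, and values under about 1 RPKM there are listed at 0.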
